A study of Mus musculus with 6 samples.

Results

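The mouse mitochondrial genome was represented by 37 of the 57010 genes in the deposited table, chosen as the rows whose symbol starts with mt- and whose chromosome is given as MT. They are 13 messenger RNAs, 2 ribosomal RNAs and 22 transfer RNAs, and each has an FPKM value (fragments counted on a gene, divided by its length and by the size of the library) in all 6 libraries. The libraries came from skin of 6 mice labelled as wild type, 3 treated with CST and 3 with Yoda1, with 1 library per mouse, taken when a diabetic ulcer experiment ended. CST stands in the series title as cortistatin, a neuropeptide related to somatostatin, and Yoda1 is a synthetic opener of the mechanosensitive channel Piezo1, and both were given in gels on the skin. Strain, age, dose and the way diabetes was brought about are not given in the labels, and skin without either agent was not analysed here. The labels call the tissue skin and also tag it as keratinocytes, but the libraries held transcripts of several cell types. The 14 keratinocyte markers took 2.13% to 5.35% of the FPKM sum, 10 fibroblast markers 0.511% to 1.597% and 20 skeletal muscle markers 0.0232% to 2.55%.

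Mitochondrial DNA is a small circle that is copied into RNA from both strands by a dedicated polymerase, Polrmt, with the packaging protein Tfam and the factor Tfb2m. Each strand gives a long precursor, and in most places a transfer RNA lies between the messenger and ribosomal RNAs, so that cutting out the transfer RNAs releases the others. All mitochondrial messenger RNAs encode subunits of the respiratory chain or of ATP synthase, and the ribosomal and transfer RNAs serve the mitochondrion's own translation, so that every other protein of these machines is imported from nuclear genes. Transcripts of the light strand, which carries a single messenger RNA, mt-Nd6, are mostly degraded after processing.

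The positions of all 37 genes in the deposited table equalled those of GENCODE M21 on GRCm38. The messenger RNAs ran from 204 bases (mt-Atp8) to 1824 bases (mt-Nd5) and the transfer RNAs from 59 to 75 bases, all as single exons. Of the messenger RNAs 12 are transcribed with the heavy-strand precursor. Reading frames overlap at several joints, which matters for counting because reads from an overlap belong to both genes. The joints of mt-Atp8 with mt-Atp6 (chrMT:7917-7979) and of mt-Nd4l with mt-Nd4 (chrMT:10157-10183) are shown on the strand of the genes, with the bases shared by both genes in capitals:
mt-Atp8 to mt-Atp6: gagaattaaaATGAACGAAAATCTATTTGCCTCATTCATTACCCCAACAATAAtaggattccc
mt-Nd4l to mt-Nd4: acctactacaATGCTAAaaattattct
The shared part is 43 bases for mt-Atp8 and mt-Atp6 and 7 bases for mt-Nd4l and mt-Nd4, in a different reading frame for each gene. The end of mt-Nd5 overlaps the end of mt-Nd6 on the opposite strand by 14 bases, and reads from such a stretch can be told apart only with strand information. The sources used here do not state whether strand was used. In 3 messenger RNAs the gene ends on a lone T after the last whole codon, and the stop codon is completed when the poly(A) tail is added, whereas the other 10 end on a whole stop codon. The last 12 bases of these 3 are shown with that T in capitals, beside mt-Nd1 with its stop codon in capitals:
mt-Co3: gatgaggatctT
mt-Nd4: gcctgacaataT
mt-Cytb: aattatatccaT
mt-Nd1: ccatacataTAG

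The sequences of several of these genes are not unique in the genome. A search of all GENCODE M21 transcripts at 90% identity or more over at least 100 bases found 17 nuclear copies with a row in the table, 5 of them listed at 0 in every library. The 7 copies on chromosome 1 form a series of unprocessed pseudogenes (Gm28439, Gm10222, Gm28438, Gm28437, Gm10925, Gm28661 and Gm29216, in order of rising position) on the minus strand between 24611535 and 24616197 on GRCm38. They follow the order of the mitochondrial genes between 6390 and 11042, and the sum of the chromosome 1 and mitochondrial positions stayed within 1 base over all 7, so the spacing between them is that of the mitochondrial genome as well. In the deposited table their positions lie 39081 bases higher, so its nuclear positions are not those of GRCm38. Gm28661, Gm10925, Gm28437 and Gm10222 matched mt-Co2 (over 681 bases), mt-Atp6 (678), mt-Co3 (783) and mt-Nd4l (294) without a mismatch over at least 99.0% of the mitochondrial gene, and Gm28439 matched 63.6% of mt-Nd4 (876 bases) without a mismatch. The other 2 each differ from the mitochondrial gene at 1 base. Gm29216 carries A1066T against mt-Co1 over 483 bases, 31.3% of that gene, and Gm28438 carries T3C against mt-Nd3 over 345 bases, counted from the first base of the mitochondrial gene. Both differences are shown in capitals, with mt-Co1 at chrMT:6390-6407 and mt-Nd3 at chrMT:9459-9475:
mt-Co1: ggaAttgttttatccaac
Gm29216: ggaTttgttttatccaac
mt-Nd3: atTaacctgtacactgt
Gm28438: atCaacctgtacactgt
A read from a matching stretch that does not span a differing base cannot be assigned by sequence to the mitochondrion or to chromosome 1. The sources used here do not state how the authors' counting treated reads that match 2 places, and its part in the values below was not tested.

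The steps between FPKM values gave depths of 23791352 to 29620526 reads per library, and 1 read on a gene of 1 kb was worth 0.0338 to 0.0420 FPKM. All 145 member values above 0 came out as whole reads within 0.001 reads, and intervals from these reads cover counting error only. The mitochondrial messenger RNAs held 5.88%, 2.83% and 3.11% of recovered reads for CST mice 1, 2 and 3, against 3.45%, 3.13% and 6.92% for Yoda1 mice 1, 2 and 3. The ribosomal RNAs took 0.627%, 0.286% and 0.223%, then 0.204%, 0.238% and 0.477%, and the transfer RNAs between 168 and 389 reads per library in all. CST mouse 1 and Yoda1 mouse 3 thus stood apart from the other 4 libraries for messenger and ribosomal RNAs, with 1 such library in each treatment group. Both were also the libraries with the lowest share of fibroblast markers (0.512% and 0.511%, against 0.728% to 1.597%) and of endothelial markers (0.0167% and 0.0170%, against 0.0206% to 0.0381%), and the highest summed share of neutrophil markers (1.64% and 0.574%, against 0.105% to 0.277%). That sum follows a few abundant genes, and the pair was highest for only 2 of the 12 neutrophil markers tested. By the mean log2(FPKM + 1) of those markers, Yoda1 mouse 3 (5.14) lay below CST mouse 2 (5.71). The keratinocyte share was 2.91% and 5.35%, against 2.13% to 3.69%. The part of these in the mitochondrial values was not tested, and in bulk skin more cells of a type cannot be told apart from more RNA per cell.

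No mitochondrially encoded RNA differed between CST and Yoda1 skin beyond the spread between mice. Of the 25 members tested with limma on log2(FPKM + 1), 0 passed the adjusted threshold of 0.05, where over all 14588 genes tested 0 genes (0%) passed. None of the 25 had an unadjusted p under 0.05 either, where 584 genes (4%) did. In 0 of the 25 did the 3 values of one group all lie above those of the other, where 962 genes (6.59%) did, 4.52% with CST higher and 2.08% with Yoda1 higher. Every member tested had an adjusted p of 0.9999 by limma. The messenger RNAs had a median log2 difference (CST minus Yoda1) of -0.05, with 5 higher and 8 lower, the ribosomal RNAs one of 0.25 and the 10 transfer RNAs tested one of -0.04, and over all genes tested it was -0.01. These medians follow single libraries: without CST mouse 1 they were -0.36, -0.18 and -0.19, and without Yoda1 mouse 3 they were 0.21, 0.62 and -0.44, with no member called either way. Without both they were -0.06, 0.19 and -0.57. Over the whole table limma called 136 genes when Yoda1 mouse 2 was left out and 8 when CST mouse 2 was, and no mitochondrial RNA was among them.

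**Figure D1:**
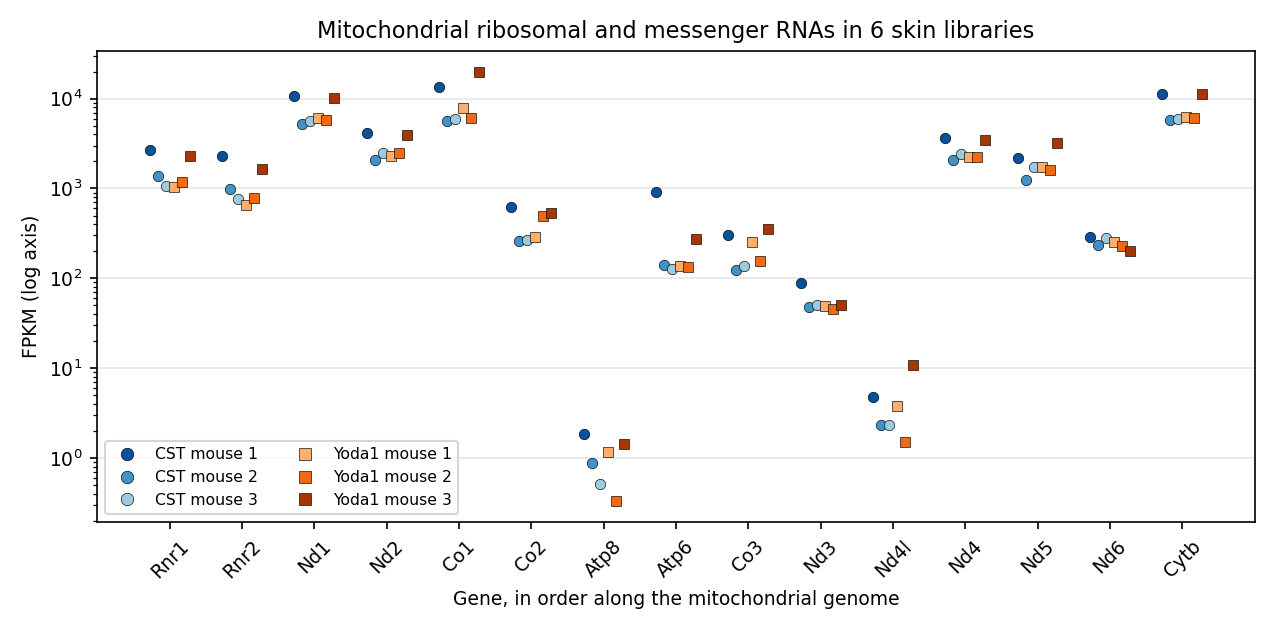
FPKM on a log axis of the 2 ribosomal and 13 messenger RNAs, in the order of their genes along the mitochondrial genome, with circles for the 3 CST libraries and squares for the 3 Yoda1 libraries. CST mouse 1 and Yoda1 mouse 3 are the highest pair for each gene but mt-Nd6, and mt-Co2 to mt-Nd4l lie below their neighbours on either side.

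Complex I, the NADH dehydrogenase that feeds electrons into the chain, has 7 mitochondrially encoded subunits, all in its membrane arm. mt-Nd1 measured 10845, 5214 and 5675 FPKM in CST mice 1, 2 and 3 (in that order, as for every gene) and 6037, 5789 and 10227 FPKM in Yoda1 mice. mt-Nd2 measured 4129, 2098 and 2493 FPKM in CST and 2294, 2469 and 3923 FPKM in Yoda1 mice. For both genes the high values belonged to CST mouse 1 and Yoda1 mouse 3, and the other 2 mice of each group lay close together. The group means of mt-Nd1 were 7245 ± 3126 (SD, n = 3) and 7351 ± 2494 FPKM, a log2 difference of -0.05 (SE 0.41, limma adjusted p = 0.9999). mt-Nd4 measured 3636, 2053 and 2443 FPKM in CST and 2219, 2214 and 3450.5 FPKM in Yoda1 mice, and mt-Nd5, the longest messenger RNA, 2179.8, 1255 and 1749 FPKM, then 1748, 1619.9 and 3209 FPKM. The order of mt-Nd1, mt-Nd2, mt-Nd4 and mt-Nd5 from high to low was the same in all 6 libraries.

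The smaller complex I subunits with chromosome 1 copies were far lower. mt-Nd3 measured 88.8, 48.4 and 50.3 FPKM in CST and 49.3, 46.0 and 50.8 FPKM in Yoda1 mice. Here CST mouse 1 was high, while Yoda1 mouse 3 lay within 1 FPKM of the others nearest to it. mt-Nd4l measured 4.75, 2.31 and 2.32 FPKM in CST and 3.75, 1.49 and 10.8 FPKM in Yoda1 mice, so that Yoda1 held both the highest and the lowest value. The mt-Nd4l values came from only 13 to 76 reads per library. As a ratio to mt-Nd1, mt-Nd3 stood at 0.00819, 0.00929 and 0.00886 in CST and 0.00816, 0.00794 and 0.00497 in Yoda1 mice, the only one of the 14 such ratios of messenger and ribosomal RNAs whose groups did not overlap, by a narrow gap. By FPKM the groups of mt-Nd3 overlapped, and those of 6.59% of all genes tested did not. mt-Nd3 held 20.3% to 40.9% of the reads of the pair with its copy, and the part of that split in the ratio was not tested. The log2 difference was 0.30 (SE 0.27) for mt-Nd3 and -0.38 (SE 0.54) for mt-Nd4l. That of mt-Nd3 was 0.020 without CST mouse 1 and 0.60 with the reads of its chromosome 1 copy added.

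mt-Nd6, the complex I subunit read from the light strand, did not share this pattern. It measured 286, 236 and 280.4 FPKM in CST and 253, 229 and 199 FPKM in Yoda1 mice. Yoda1 mouse 3, which had the highest or second highest value for every heavy-strand messenger RNA, had the lowest mt-Nd6 value of the 6. The group means were 267 ± 27.2 (SD, n = 3) and 227 ± 27.1 FPKM, and the log2 difference of 0.24 (SE 0.21, limma adjusted p = 0.9999) was positive in every alternative run. As a share of the mean of the 12 heavy-strand messenger RNAs, mt-Nd6 stood at 7.25%, 12.5% and 13.6% in CST and 11.2%, 10.9% and 4.49% in Yoda1 mice. The groups overlapped in this ratio (two-sided exact permutation p = 0.5, over 20 assignments that cannot go below 0.1), and its low values were those of CST mouse 1 and Yoda1 mouse 3. Whether reads were counted by strand is not stated, and the part of heavy-strand RNA in the mt-Nd6 values was not tested.

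The only mitochondrially encoded subunit of complex III is cytochrome b. mt-Cytb measured 11141, 5813 and 5992 FPKM in CST and 6290.3, 6054 and 11404 FPKM in Yoda1 mice, with means of 7649 ± 3026 and 7916 ± 3023 FPKM (SD, n = 3 each) and a log2 difference of -0.05 (SE 0.41). It followed mt-Nd1 closely although the genes lie far apart, with a ratio of mt-Cytb to mt-Nd1 between 1.03 and 1.12 over the 6 libraries. The same ratio to mt-Nd1 ran from 0.380 to 0.439 for mt-Nd2 and from 0.335 to 0.431 for mt-Nd4.

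Complex IV, cytochrome c oxidase, has its catalytic core encoded by mt-Co1, mt-Co2 and mt-Co3. mt-Co1 measured 13404, 5686 and 5876 FPKM in CST and 7840.1, 6122 and 19743 FPKM in Yoda1 mice, and by its mean over the 6 libraries it ranked highest of all 57010 genes. The Yoda1 mouse 3 value was the highest single one, and the ratio of mt-Co1 to mt-Nd1 was 1.93 there against 1.04 to 1.30 elsewhere. The log2 difference of mt-Co1 was -0.36 (SE 0.55). mt-Co2 measured 615, 262 and 265 FPKM in CST and 292, 498 and 536 FPKM in Yoda1 mice, so that Yoda1 mouse 2 was also high for this gene. mt-Co3 measured 301, 123 and 137 FPKM in CST and 255, 156 and 349.9 FPKM in Yoda1 mice, and both genes overlapped between the groups.

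The 2 mitochondrially encoded ATP synthase subunits belong to its membrane part, which carries the proton channel. mt-Atp6 measured 923 FPKM in CST mouse 1, then 139.5 and 128 FPKM in CST mice 2 and 3, and 138, 134 and 271 FPKM in Yoda1 mice. A single library thus set the CST mean of 397 ± 456 FPKM (SD, n = 3) against 181 ± 77.6 FPKM in Yoda1, and the log2 difference of 0.57 (SE 0.73, limma adjusted p = 0.9999) was -0.36 without CST mouse 1. The ratio of mt-Atp6 to mt-Nd1 was 8.51% in CST mouse 1 and 2.25% to 2.68% in the other 5 libraries. mt-Atp8 measured 1.83, 0.885 and 0.506 FPKM in CST and 1.16, 0.335 and 1.44 FPKM in Yoda1 mice, from 9, 5, 3, 7, 2 and 7 reads. This was the lowest level of any mitochondrial messenger RNA, although its gene runs into that of mt-Atp6.

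By mean FPKM the order of levels was mt-Co1 (9779), mt-Cytb (7782), mt-Nd1 (7298), mt-Nd2 (2901), mt-Nd4 (2669), mt-Nd5 (1960.2), mt-Rnr1 (1604), mt-Rnr2 (1190.2), mt-Co2 (411), mt-Atp6 (289), mt-Nd6 (247), mt-Co3 (220.3), mt-Nd3 (55.6), mt-Nd4l (4.23) and mt-Atp8 (1.03). FPKM is per length, but this is the order of the values as listed, which also depend on how reads were assigned. For the genes copied almost whole on chromosome 1, the mitochondrial gene held 20.3% to 61.1% of the reads of the pair. Overlapping genes also share bases, and the part of read assignment in these levels was not tested. Most neighbours in this order kept it in all 6 libraries. The exceptions were mt-Co1 above mt-Cytb (4 of 6), mt-Nd5 above mt-Rnr1 (4), mt-Co2 above mt-Atp6 (5), mt-Atp6 above mt-Nd6 (2) and mt-Nd6 above mt-Co3 (3). Of the heavy-strand messenger RNAs, 6 have genes wholly within the span of the chromosome 1 series (mt-Co2, mt-Atp8, mt-Atp6, mt-Co3, mt-Nd3 and mt-Nd4l). They summed to 576 to 1934 FPKM per library, and the other 6 to between 22119 and 51957 FPKM. Apart from the 43 bases it shares with mt-Atp6, mt-Atp8 had no copy in the series. Sequence between the annotated copies was not compared.

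**Figure D2:**
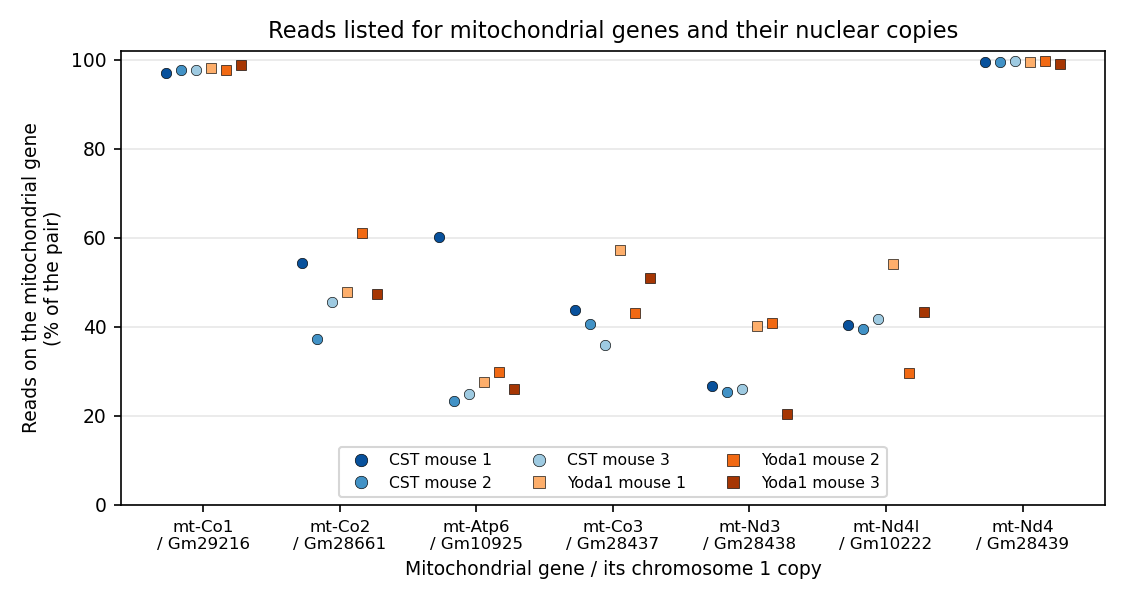
Reads on each mitochondrial gene as a percentage of the reads on that gene and its chromosome 1 copy together, per library, with circles for CST and squares for Yoda1. For mt-Co1 and mt-Nd4, of which only part is copied, the mitochondrial gene holds 96.9% or more, and for the 5 genes copied almost whole it holds 20.3% to 61.1%.

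The chromosome 1 copies carried many reads. Together they held 3150, 1669 and 1544 FPKM in CST and 1442, 1407 and 2681 FPKM in Yoda1 mice, so the same 2 libraries were highest as for the mitochondrial genes. Gm10925, the copy of mt-Atp6, measured 615, 459 and 385 FPKM in CST and 364, 318 and 774 FPKM in Yoda1 mice. In CST mouse 1 mt-Atp6 held 60.1% of the reads of the pair (95% Wilson interval 59.5% to 60.7%), and in the other 5 libraries 23.4% to 29.8%, with intervals between 22.6% and 30.7%. The sum of both was 1538 FPKM in CST mouse 1 and 452 to 1045 FPKM elsewhere. The split also differed between libraries for the other pairs. Reads of the mt-Co2 and Gm28661 pair lay on mt-Co2 at 61.1% in Yoda1 mouse 2 and 37.4% to 54.3% elsewhere, and the mt-Co3 and Gm28437 pair at 57.2% in Yoda1 mouse 1 and 35.9% to 51.1% elsewhere. For mt-Nd3 and Gm28438 the share was 40.2% and 40.9% in Yoda1 mice 1 and 2 and 20.3% to 26.8% in the other 4 libraries. With each copy added to its gene, mt-Co2 summed to 1134, 703 and 583 FPKM in CST and 611, 816 and 1133 FPKM in Yoda1 mice, and mt-Co2, mt-Atp6, mt-Co3 and mt-Nd3 still had means below the 1190.2 FPKM of mt-Rnr2. Adding the copies moved the log2 difference of mt-Nd3 from 0.30 to 0.60, of mt-Atp6 from 0.57 to 0.33, of mt-Co3 from -0.48 to -0.16 and of mt-Co2 from -0.29 to -0.09. The median over the messenger RNAs stayed at -0.05, and limma called 0 genes (584 at an unadjusted p under 0.05). The copy on chromosome 2 of mt-Co1, Gm13340, with 97.6% identity, had a mean of 3.04 FPKM.

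The 2 ribosomal RNAs, the catalytic and structural core of the mitochondrial ribosome, lie near the start of the heavy-strand precursor. mt-Rnr1, the small subunit RNA, measured 2687, 1363 and 1064 FPKM in CST and 1048, 1188 and 2272 FPKM in Yoda1 mice. mt-Rnr2, the large subunit RNA, measured 2326, 980.1 and 763 FPKM in CST and 653, 783 and 1637 FPKM in Yoda1 mice. In both the high values were again those of CST mouse 1 and Yoda1 mouse 3, and the log2 differences were 0.15 (SE 0.44) and 0.35 (SE 0.50). Per length, mt-Rnr2 stood below mt-Rnr1 in every library, with a ratio of 0.866, 0.719 and 0.717 in CST and 0.623, 0.659 and 0.721 in Yoda1 mice. The groups overlapped only through Yoda1 mouse 3 (0.767 ± 0.0852 against 0.667 ± 0.0494, SD, n = 3 each, two-sided exact permutation p = 0.3). Summed ribosomal RNA stood at 10.5%, 10.2% and 7.28% of summed messenger RNA for CST, and at 6.20%, 7.78% and 7.32% for Yoda1 mice, by FPKM (9.35 ± 1.80 against 7.10 ± 0.811, exact permutation p = 0.3). CST mice 1 and 2 lay above all 3 Yoda1 mice in this ratio and CST mouse 3 lay among them. Both ribosomal RNAs were thus less abundant per length than mt-Nd1, mt-Nd2, mt-Nd4 and mt-Cytb in all 6 libraries. The kit in the labels extracts total RNA, and the sources used here do not state whether ribosomal RNA was depleted or poly(A) RNA selected.

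**Figure D3:**
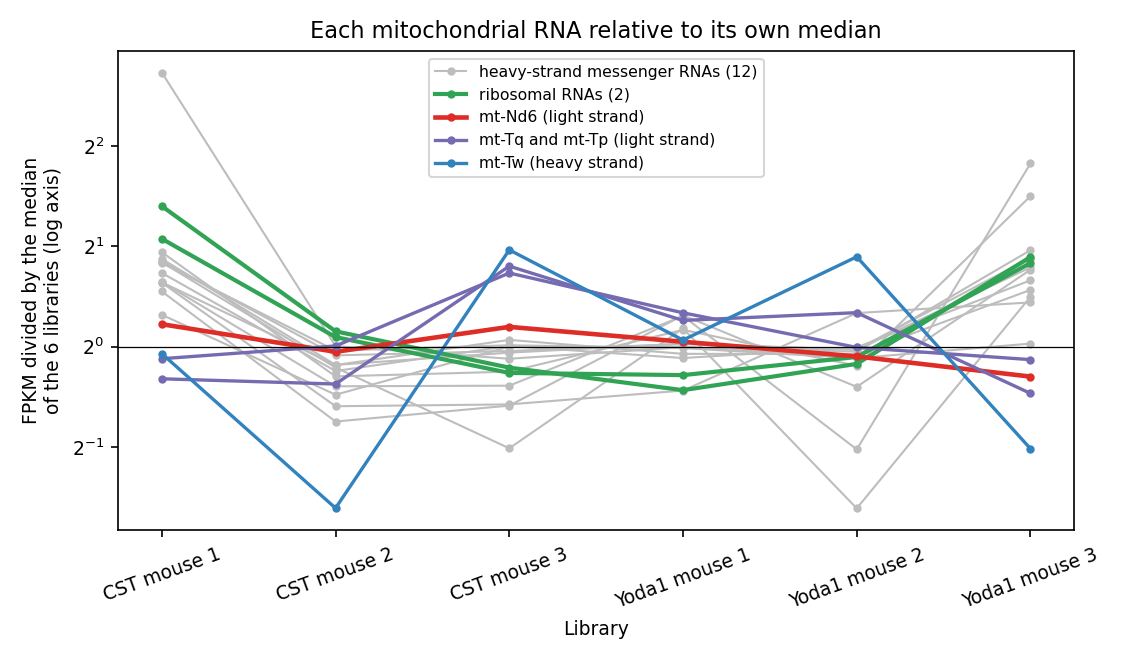
FPKM of each mitochondrial RNA divided by its own median over the 6 libraries, on a log axis, with 1 line per gene: 12 heavy-strand messenger RNAs in grey, the 2 ribosomal RNAs in green, mt-Nd6 in red, and the 3 transfer RNAs of highest mean FPKM in purple and blue. Grey and green lines lie above 1 in CST mouse 1 and Yoda1 mouse 3, and those of mt-Nd6 and the transfer RNAs lie below 1 in Yoda1 mouse 3.

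Across classes the same 2 libraries recurred. CST mouse 1 and Yoda1 mouse 3 were the 2 highest libraries for 12 of 13 messenger RNAs, for 2 of 2 ribosomal RNAs and for 0 of the 10 transfer RNAs tested, of which mt-Td had reads in 1 library and could not have this order. Among all genes tested this pair was highest for 1799 of 14588 (12.3%). The count of 12 includes near ties. For mt-Atp8, Yoda1 mice 1 and 3 each held 7 reads. For mt-Nd3, Yoda1 mouse 3 (50.8 FPKM) lay just above CST mouse 3 (50.3 FPKM). The order of libraries was looked at after the values were known, and the 14 heavy-strand RNAs come from 1 precursor, so they are not independent of each other.

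Of the 22 transfer RNAs, which bring amino acids to the mitochondrial ribosome, 11 were listed at 0 in all libraries, 9 of the 14 heavy-strand and 2 of the 8 light-strand ones. For a gene of 70 bases a count of 0 allows up to 3 reads, or 1.45 to 1.80 FPKM, so absence from skin cannot be read from it. This bound covers counting error only, and how well RNAs of this length were captured was not tested. The transfer RNAs with the most signal are shown 5′ to 3′ as DNA, with the anticodon in capitals, since they carry nearly all the reads of the class:
mt-Tq (glutamine, chrMT:3772-3842, light strand): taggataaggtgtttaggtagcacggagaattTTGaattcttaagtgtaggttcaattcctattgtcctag
mt-Tw (tryptophan, chrMT:4950-5016, heavy strand): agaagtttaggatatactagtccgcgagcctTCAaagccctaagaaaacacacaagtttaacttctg
mt-Td (aspartate, chrMT:6942-7011, heavy strand): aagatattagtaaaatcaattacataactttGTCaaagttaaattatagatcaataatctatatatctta
mt-Tt (threonine, chrMT:15289-15355, heavy strand): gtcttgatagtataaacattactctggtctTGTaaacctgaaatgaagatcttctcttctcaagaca
mt-Tp (proline, chrMT:15356-15422, light strand): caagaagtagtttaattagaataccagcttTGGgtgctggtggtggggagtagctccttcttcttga

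mt-Td was found in a single library. It held 109 reads (52.6 FPKM) in Yoda1 mouse 1 and 0 reads in each of the other 5. Its gene, the poorest in G and C of the 22 transfer RNA genes at 17.1%, lies within the stretch collinear with the chromosome 1 copies, between mt-Co1 and mt-Co2, where no copy is annotated. Of the other transfer RNA genes in that stretch, mt-Tk, mt-Tg and mt-Tr were listed at 0 in all libraries, and mt-Ts1, which overlaps the end of mt-Co1 on the other strand, held 3 to 12 reads. Of the mitochondrial genes copied almost whole, Yoda1 mouse 1 had the highest share of pair reads of the 6 libraries for mt-Co3 and mt-Nd4l, but not for mt-Co2, mt-Atp6 and mt-Nd3. For mt-Nd4l that share was 54.1% (95% Wilson interval 41.7% to 66.0%), and its interval overlapped that of every other library. The part of read assignment in the mt-Td value was not tested. The log2 difference of mt-Td was -1.91 (SE 1.39), and 0 without Yoda1 mouse 1.

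The remaining detected transfer RNAs were found at low levels in most libraries. mt-Tp measured 31.6, 34.5 and 57.0 FPKM in CST and 43.3, 34.1 and 31.4 FPKM in Yoda1 mice, from 51, 64, 111, 86, 67 and 50 reads. mt-Tq measured 21.6, 20.8 and 47.0 FPKM in CST and 32.3, 34.1 and 19.5 FPKM in Yoda1 mice. mt-Tw measured 26.6, 9.16 and 54.5 FPKM in CST and 29.2, 51.9 and 13.8 FPKM in Yoda1 mice. In these 3 the highest library was CST mouse 3, and neither CST mouse 1 nor Yoda1 mouse 3 was among the upper 2. mt-Tt, which directly follows mt-Cytb on the heavy strand, measured 21.0, 15.1 and 9.25 FPKM in CST and 16.6, 22.9 and 36.4 FPKM in Yoda1 mice, with a log2 difference of -0.71 (SE 0.37, limma unadjusted p = 0.0930, adjusted p = 0.9999). This was the smallest unadjusted p of the 25 members tested, and the groups overlapped. mt-Ti, mt-Ta, mt-Ty, mt-Ts1 and mt-Te held 0 to 12 reads per library, and mt-Tm held 1 read in each of 2 libraries.

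**Figure D4:**
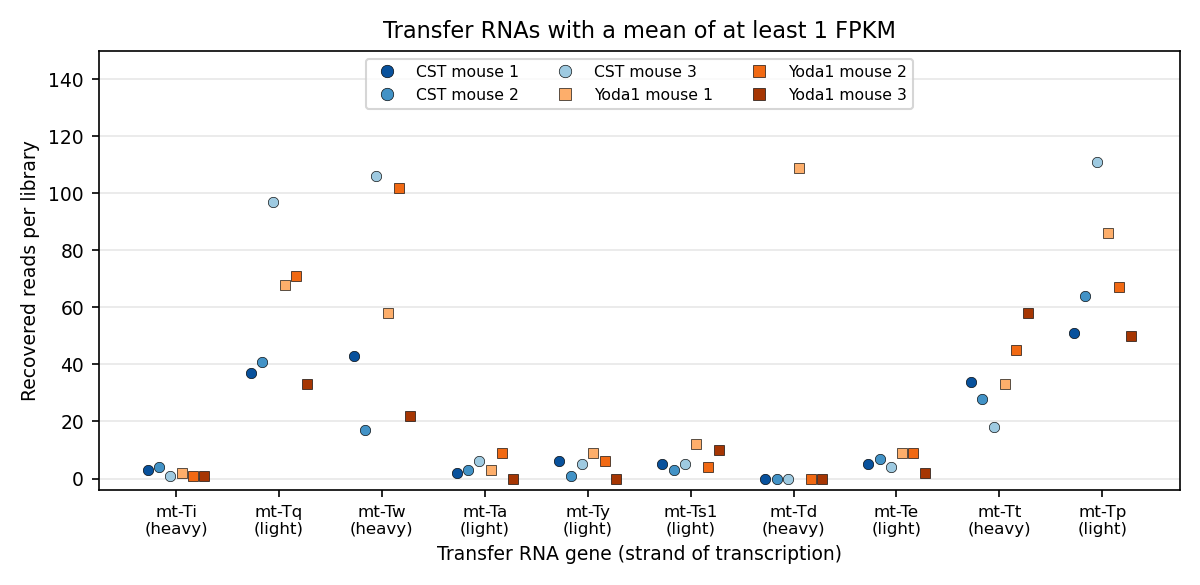
Recovered reads per library on the 10 transfer RNAs with a mean of at least 1 FPKM, with circles for CST and squares for Yoda1, and the strand under each name. mt-Td stands at 109 reads in Yoda1 mouse 1 and at 0 in the other 5 libraries.

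The nuclear genes that make, cut and use these RNAs showed no change beyond the spread between mice, with 0 members of each list called by limma and 0 at an unadjusted p under 0.05. Of 18 genes of mitochondrial transcription and DNA copying, 14 had positive and 4 negative log2 differences (median 0.06), where 6882 of all 14588 genes tested were positive. Those with the smallest p were Mterf2, of the mitochondrial termination factor family, at 4.85 ± 0.806 and 3.97 ± 0.905 FPKM in CST and Yoda1 skin, and the helicase gene Twnk at 6.27 ± 1.499 and 5.10 ± 0.550 FPKM, ahead of Polg2 (log2 difference 0.24) and Primpol (-0.17). Of 36 genes of RNA processing, modification and decay, 19 were positive and 17 negative (median 0.02). Pnpt1, which encodes the RNA-degrading polynucleotide phosphorylase of mitochondria, measured 23.3, 22.2 and 19.96 FPKM in CST and 24.6, 22.1 and 39.7 FPKM in Yoda1 mice, a log2 difference of -0.34 (SE 0.26). Slirp, the partner of Lrpprc in stabilising mitochondrial messenger RNAs, measured 55.7, 36.8 and 37.7 FPKM in CST and 43.5, 51.2 and 56.7 FPKM in Yoda1 mice. CST mouse 1 and Yoda1 mouse 3 were the 2 highest libraries for 6 of the 36 genes of this list, Slirp among them, where 12.3% of all genes tested had this order. Trnt1, which adds the CCA end to transfer RNAs, had a log2 difference of -0.26 and Trmu, a transfer RNA modification enzyme, one of 0.24.

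Of the 22 genes for mitochondrial aminoacyl-tRNA synthetases and the related amidotransferase, which load the transfer RNAs, 21 were tested, with 12 positive and 9 negative (median 0.03). Among those with the smallest p were Wars2 (log2 difference -0.13), Pars2 (0.12) and Qrsl1 (-0.10). Of 78 mitoribosomal protein genes, whose products assemble with the ribosomal RNAs, 77 were tested, 37 positive and 40 negative (median -0.01). Their mean log2(FPKM + 1) stood at 4.89, 5.26 and 5.28 in CST and 5.12, 5.34 and 4.95 in Yoda1 mice, lowest in CST mouse 1 and Yoda1 mouse 3. The members with the smallest p were Mrpl27 (-0.26), Mrpl44 (0.31), Mrps33 (-0.25) and Mrps36 (0.28).

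**Figure D5:**
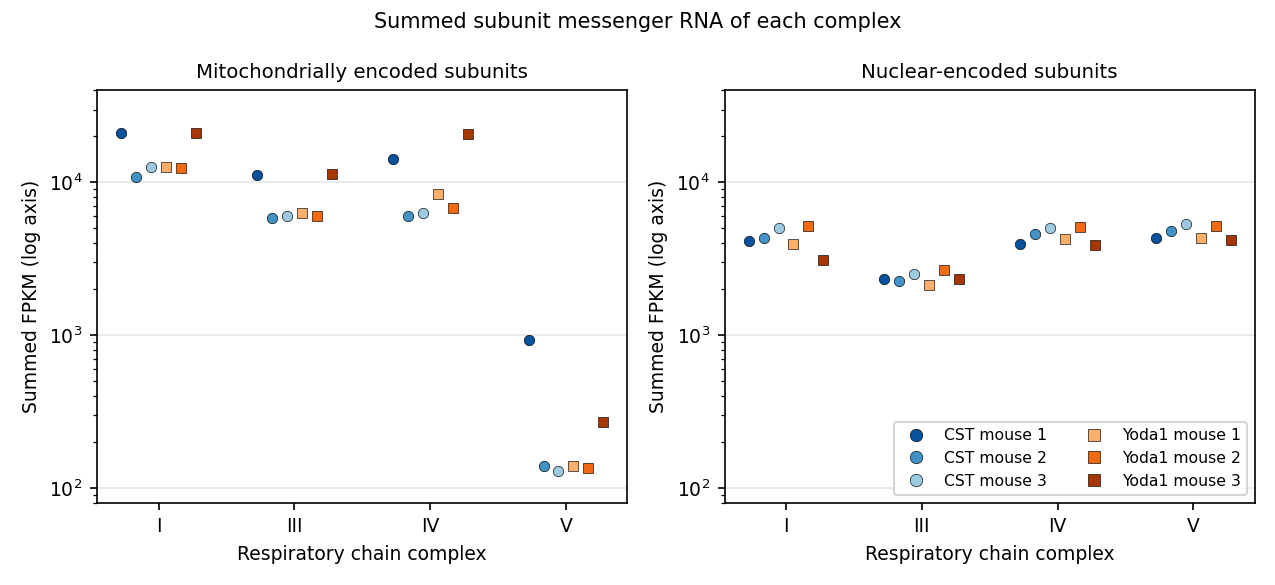
Summed FPKM on a log axis of the mitochondrially encoded subunits (left) and the nuclear-encoded subunits (right) of complexes I, III, IV and V, per library, with circles for CST and squares for Yoda1. CST mouse 1 and Yoda1 mouse 3 are highest on the left in every complex and not on the right.

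The nuclear-encoded subunits of the same complexes also differed between libraries, and CST mouse 1 and Yoda1 mouse 3 were not their highest. Summed nuclear complex IV subunits were lowest in these libraries (3952 and 3891 FPKM, against 4259 to 5124 FPKM), as were those of complex II (337 and 296 FPKM, against 409 to 436 FPKM). Complex III did not show this, at 2322 and 2334 FPKM, with CST mouse 2 (2273 FPKM) and Yoda1 mouse 1 (2128 FPKM) lower. For complex V Yoda1 mouse 3 was lowest (4184 FPKM), but Yoda1 mouse 1 (4319 FPKM) lay below CST mouse 1 (4358 FPKM). For complex I the 7 mitochondrial subunits summed to 21169.8, 10907 and 12693 FPKM in CST and 12604, 12368 and 21069.8 FPKM in Yoda1 mice. The 36 nuclear subunits summed to 4114, 4363 and 5058 FPKM in CST and 3964, 5179.9 and 3113 FPKM in Yoda1 mice, lowest in Yoda1 mouse 3. The ratio of both sums came to 5.15, 2.50 and 2.51 in CST and 3.18, 2.39 and 6.77 in Yoda1 mice, with an exact permutation p of 0.7 between the groups. For complex III the ratio came to 4.80, 2.56 and 2.36 in CST and 2.96, 2.28 and 4.89 in Yoda1 mice (exact p = 0.8), and for complex IV 3.62, 1.33 and 1.24, then 1.97, 1.32 and 5.30 (exact p = 0.6). Of the 2 mitochondrial subunits of complex V, only mt-Atp6 had a chromosome 1 copy of its own. The ratio for complex V came to 0.212, 0.0290 and 0.0241 in CST and 0.0323, 0.0261 and 0.0650 in Yoda1 mice (exact p = 0.9). These 4 p-values are unadjusted, and none can go below 0.1.

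The nuclear subunits themselves had 0 genes called by limma. Of the 36 of complex I, 34 had positive log2 differences (median 0.16), of the 9 of complex III 6 (0.04), of the 11 of complex IV 7 (0.10), of the 16 of complex V 14 (0.15), and of the 4 of complex II, which has no mitochondrially encoded subunit, 3 (0.08). Over all genes tested 6882 of 14588 were positive. By mean log2(FPKM + 1), Yoda1 mouse 3 was the lowest library for complexes I (6.09) and V (7.46). For complex I the other Yoda1 mice stood at 6.53 and 6.89 and the CST mice at 6.50 to 6.86. For complex V these values were 7.62 and 7.96, and 7.66 to 7.97. Ndufa12 (0.79), Ndufs1 (0.21) and Ndufb5 (0.23) were among those with the smallest p in complex I. In complex IV these were Cox5a (0.32), Cox8a (-0.18), Cox6a1 (-0.17) and Cox7c (0.13), and in complex V Atp5o (0.29) and the inhibitor gene Atpif1 (-0.22). The 3 muscle-type complex IV isoforms Cox6a2, Cox8b and Cox7a1 had log2 differences of 3.52, 2.23 and 2.14 (limma adjusted p = 0.584, 0.813 and 0.998, each under 0.05 unadjusted). The 20 skeletal muscle markers held 2.55%, 1.28% and 2.29% of summed FPKM for CST and 0.0232%, 0.917% and 0.113% in Yoda1 mice. The part of muscle in the mitochondrial values was not tested.

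Among RNAs outside the mitochondrion that carry no poly(A) tail or stay in the nucleus, 4 of 11 were tested and 5 were listed at 0, and none was called. The small nuclear RNA Rn7sk measured 131, 48.7 and 38.9 FPKM in CST and 26.01, 30.8 and 48.9 FPKM in Yoda1 mice. It was highest in CST mouse 1, and Yoda1 mouse 3 and CST mouse 2 followed at nearly the same level. Malat1 measured 339, 347 and 277 FPKM in CST and 328, 268 and 169 FPKM in Yoda1 mice, with the lowest value in Yoda1 mouse 3. The part of these RNAs in the mitochondrial values was not tested.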

How the data were processed

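The authors deposited 1 table of FPKM values for 57010 genes and 6 libraries, per the file headers. The submitters' processing notes name GRCm38 and mm10, and the sources used here do not state the aligner, counting tool, library selection or strandedness. Members, lists and tests were chosen with earlier results of these data known. Groups and mouse numbers came from the sample titles, each library being 1 mouse. Depth was recovered from the value of 1 read on 5921 genes of up to 150 bases, and whole reads from it and each gene's length. limma 3.58.1 in R 4.3.3 (trend) was run on log2(FPKM + 1), two-sided, over 14588 genes (mean FPKM 1 or higher), Benjamini-Hochberg adjusted at 0.05. It was also run on simulated data with the same spread for all genes and no outlying library. That run therefore does not show which differences could be found in these libraries. Single ratios were compared by exact permutation. Nuclear copies were found with BLAST+ 2.17.0. All mitochondrial rows are described, and of each list up to 4 tested members with the smallest p, a few of which are not reported here. Of nuclear copies the up to 8 of highest mean were eligible. Sequences are from GENCODE M21 transcripts on GRCm38.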

Additional observations from a re-analysis of the deposited data

How the results depend on the processing

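No member was called by limma in any of 18 alternatives (smallest limma adjusted p = 0.367), and of 425 values of single members under them 381 kept their direction, 43 changed it and 1 was 0 (mt-Td without Yoda1 mouse 1). Leaving out 1 library moved the count of genes called over the whole table between 0 and 136, the medians of messenger, ribosomal and transfer RNAs between -0.36 and 0.21, -0.18 and 0.62, and -0.44 and 0.21, and the group differences in messenger share (main -0.547 percentage points of the FPKM sum) between -1.56 and 0.699, in ribosomal share between -0.0640 and 0.157, in the mt-Rnr2 to mt-Rnr1 ratio between 0.0506 and 0.126, in the mt-Nd6 share of the heavy-strand mean between 0.0463 and 4.16 and in the ribosomal to messenger share between 1.65 and 3.28 percentage points. By single members these ranges were -0.23 to 0.50 (mt-Rnr1), -0.12 to 0.75 (mt-Rnr2), -0.38 to 0.21 (mt-Nd1), -0.30 to 0.23 (mt-Nd2), -0.76 to 0.14 (mt-Co1), -0.20 to 0.27 (mt-Atp8), -0.36 to 1.06 (mt-Atp6), -0.91 to 0.21 (mt-Nd4l), -0.20 to 0.25 (mt-Nd4), -0.49 to 0.0020 (mt-Nd5), -0.36 to 0.24 (mt-Cytb), -0.38 to 0.19 (mt-Tq), -0.78 to 0.45 (mt-Tw), -0.38 to 0.85 (mt-Ta), -0.68 to 0.55 (mt-Ty), -0.50 to 0.14 (mt-Te), -0.12 to 0.30 (mt-Tp), -2.87 to 0.00 (mt-Td), 0.020 to 0.45 (mt-Nd3), 0.15 to 0.32 (mt-Nd6), -0.70 to -0.081 (mt-Co2), -0.89 to -0.22 (mt-Co3), -0.97 to -0.41 (mt-Tt), -1.08 to -0.45 (mt-Ts1) and 0.29 to 0.81 (mt-Ti). Without both CST mouse 1 and Yoda1 mouse 3, chosen after seeing the data, the transfer RNA median was -0.57, and mt-Ta (-0.20), mt-Ty (-1.02), mt-Atp8 (-0.010) and mt-Atp6 (-0.029) changed direction. So did mt-Ty at a pseudocount of 5 (-0.024), and with quantile normalization mt-Atp8 (-0.029), mt-Nd4 (-0.021) and mt-Cytb (0.079), where the cause was not tested. With the mouse number as a replicate block the count of genes called was 0 and the medians were -0.05, 0.25 and -0.04. The mice share only a number (correlations of same-numbered deviations -0.08, 0.21 and -0.20), and not every mouse correlated best with its own number. For the transfer RNAs 1 read on 70 bases was worth 0.482 to 0.600 FPKM, and what limits their counts was not tested.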
